A study of Homo sapiens with 24 samples.

Results

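The change in RNA levels between medium labelled LPDS and medium labelled FBS was compared between the HGC27 lines SG12 and parental, as the response in SG12 minus the response in parental cells. HGC27 is an established line from a human gastric carcinoma. Members are the 12 libraries, of 24 in the series, that the labels assign to these lines: parental cells in FBS, parental cells in LPDS, SG12 in FBS and SG12 in LPDS, with 3 replicates each after 3 days of culture in high glucose DMEM. The genotype of the parental cells is given as Parental and that of SG12 as TMEM97 Knockout. The abbreviations FBS (commonly fetal bovine serum) and LPDS (commonly serum depleted of lipoproteins) are not spelled out in the labels, which also do not say whether SG12 is 1 clone or a pool. The design text calls the replicates biological and independent but does not say which steps were done apart, so p-values measure the spread between these libraries, part of which may be technical.

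Cells take up cholesterol mainly as low-density lipoprotein and also make it from acetyl-CoA. When sterol in the endoplasmic reticulum falls, SREBP2 moves to the nucleus and raises the genes of synthesis and uptake, and sterol-rich lipoprotein keeps it out. TMEM97, the sigma-2 receptor, is a membrane protein that binds the lysosomal cholesterol transporter NPC1 and is itself a gene of this programme. Removing lipoprotein from the medium is the usual way to switch the programme on.

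Counts on genes ranged from 2399212 to 4076266 reads per library. A read of this stranded kit was mostly counted on the entry of the opposite strand: the GAPDH entry held a mean of 133 CPM (reads scaled by library size) and its antisense entry 40149 CPM. Each entry was therefore read as its source gene, the protein-coding gene on the other strand whose exons overlap it, which gave 2779 source genes. A level is that of the overlapping stretch alone and is not comparable between genes. Ambiguous reads were 2.60% to 2.80% of the reads on genes in the parental libraries and SG12 in FBS, and 2.99% to 3.15% in SG12 in LPDS. The share of reads on the named strand stands here for the part of the reads on genes that fell on 9451 protein-coding entries without a gene on the other strand. Such reads on other entries are not in it. Parental FBS replicate 2 had the highest such share (4.48%, against 3.16% to 3.91% in the others). SG12 FBS replicate 3 had the highest share on the TALAM1 entry, which collects MALAT1 reads (10.6%, against 4.47% and 5.34% in the other SG12 FBS libraries and 8.28% to 9.53% in SG12 LPDS).

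The epithelial label could not be checked through source genes, since none of 14 epithelial, 10 gastric and 8 leukocyte markers was read that way. Under their own names the 14 epithelial markers summed to 23.1 to 68.4 CPM, with 2 at 0 in all 12 libraries. Of 11 mesenchymal markers 6 were read through source genes, summing to 23037 to 34101 CPM, which is not comparable with sums under own names. Under their own names the 11 mesenchymal markers summed to 171 to 587 CPM and the 8 leukocyte markers to 23.5 to 62.3 CPM. In bulk RNA, fewer cells of a type and less RNA per cell cannot be told apart.

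The response to LPDS differed between SG12 and parental cells for 900 of 11666 entries tested (7.71%), 279 higher (2.39%) and 621 lower (5.32%) in SG12 (edgeR, Benjamini-Hochberg adjusted p under 0.05). Among source genes 426 of 2779 passed (15.3%), 118 higher (4.25%) and 308 lower (11.1%), and the median difference over all source genes was -0.12 on the log2 scale. Of the 118 that were higher, 110 rose with LPDS in SG12, while 102 passed in neither direction in parental cells. Of the 308 that were lower, 279 fell with LPDS in SG12, while 285 passed in neither direction in parental cells. In SG12 cells 952 source genes passed with LPDS (34.3%, 12.7% higher and 21.5% lower), and in parental cells 100 (3.6%, 2.48% higher and 1.12% lower). The parental calls depended on settings: over all entries there were 465 (3.99%), but 34 with the share of reads on the named strand as a covariate. Without 1 library they were 808 (parental FBS replicate 1), 159 (FBS replicate 2), 188 (LPDS replicate 1) and 84 (LPDS replicate 3). The SG12 calls over all entries were 2676 (22.9%), and 1756 and 1648 without SG12 FBS replicate 1 and 2. Of the 2676, 1177 (10.1%) were higher and 1499 (12.8%) lower, but 1378 and 1190 with all uniquely aligned reads as the library size and 1488 and 1394 with all 24 libraries in the fit.

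Most source genes whose response differed were apart between the lines in FBS and did not pass in LPDS. The response difference is the LPDS value minus the FBS value from the same libraries. These genes were thus chosen partly through the values compared here, and the split describes them and is no separate test. In FBS 38.6% of all source genes differed (24.9% higher and 13.6% lower in SG12), against 13.0% in LPDS (5.79% and 7.2%). Of the 118 source genes with a higher difference, 84 (71.2%) were lower in SG12 than in parental cells in FBS and did not pass in LPDS. Of the 308 with a lower difference, 223 (72.4%) were higher in SG12 in FBS and did not pass in LPDS, and 128 of 237 did so with the covariate. Median SG12 minus parental values of the 118 were -0.95 in FBS and -0.03 in LPDS, and those of the 308 were 0.76 in FBS and -0.16 in LPDS. Without both libraries that stand apart, 682 source genes passed, 223 higher and 459 lower, of which 119 and 286 showed the same split between media. Over all entries 1704 (14.6%) were higher and 1472 (12.6%) lower in FBS, but 1378 and 1839 with all uniquely aligned reads as the library size, which shifts every value in FBS by -0.10. With the covariate 1122 entries passed in FBS in place of 3176 (27.2%). The LPDS count over all entries was 1038 (8.9%), but 515 and 356 without parental LPDS replicate 1 and 2, 545, 551 and 518 without SG12 LPDS replicate 1, 2 and 3, and 1903 without both libraries that stand apart.

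**Figure D1:**
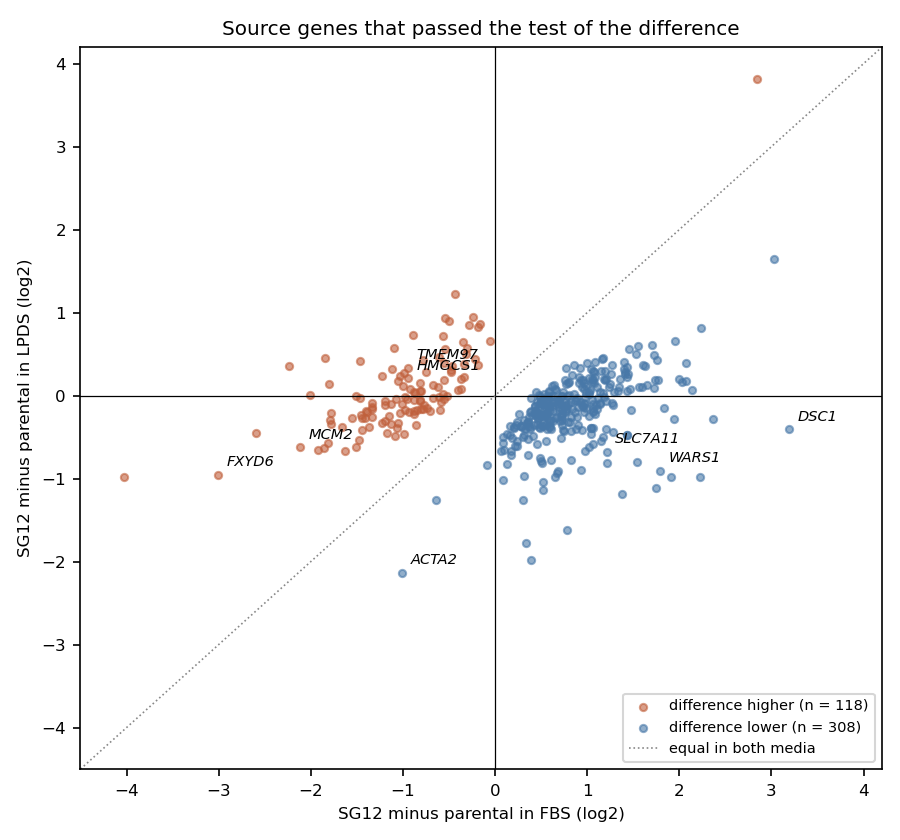
Each point is 1 of the 426 source genes whose response differed, placed by the log2 difference of SG12 from parental cells in FBS (horizontal) and in LPDS (vertical). Most points lie near 0 on the vertical axis and away from it on the horizontal axis, with DSC1 at 3.19 in FBS and -0.41 in LPDS.

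Genes of cholesterol synthesis were lower in SG12 in FBS and rose more with LPDS than in parental cells, for all but FDFT1 of those read. Of 21 genes on the list 6 were read. Of these, 5 had a higher response in SG12 and none a lower one, against 4.25% and 11.1% of all source genes. The median difference was 1.03 against -0.12 over all source genes. In FBS 5 were lower in SG12 than in parental cells (13.6% of all source genes), with a list median of -0.78, and in LPDS 2 were higher (5.79%). They act at separate steps of the pathway, among them ACAT2, which joins the first acetyl-CoA units, HMGCS1, which makes HMG-CoA, IDI1, which makes the isoprene donor, and LSS, which closes the rings of lanosterol.

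HMGCS1 (chr5:43289395-43313512, GRCh38) was at 992, 891 and 977 CPM in parental FBS and 1904, 2612 and 2353 CPM in parental LPDS. The SG12 libraries held 453, 465 and 566 CPM in FBS and 2434, 2752 and 2774 CPM in LPDS. The FBS libraries of the lines did not overlap, and those in LPDS did. The log2 response was 2.42 ± 0.12 (SE, n = 3 per group) in SG12 and 1.26 ± 0.11 in parental cells, a difference of 1.16 ± 0.16 (adjusted p = 1.89e-05).

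LSS and IDI1 ended above parental cells. LSS went from 190, 187 and 174 CPM in SG12 FBS to 667, 768 and 808 CPM in LPDS, and from 227, 221 and 254 to 501, 462 and 473 CPM in parental cells. All 3 SG12 LPDS libraries exceeded all parental LPDS libraries, at a log2 difference in LPDS of 0.64 ± 0.10 (adjusted p = 0.000248), and the response difference was 0.99 ± 0.15 (adjusted p = 8.87e-05). IDI1 went from 120, 181 and 175 to 629, 589 and 692 CPM in SG12 and from 266, 250 and 208 to 438, 422 and 528 CPM in parental cells. Its response difference was 1.07 ± 0.19 (adjusted p = 0.000642) and its difference in LPDS 0.46 ± 0.13 (adjusted p = 0.0312).

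ACAT2 went from 127, 133 and 126 to 385, 365 and 383 CPM in SG12 and from 262, 275 and 240 to 395, 421 and 399 CPM in parental cells. In FBS every SG12 library lay below every parental one, in LPDS they lay just below without passing (-0.10 ± 0.10, adjusted p = 0.585), with a response difference of 0.91 ± 0.15 (adjusted p = 0.000169). FDFT1, the squalene synthase, did not pass (0.34 ± 0.32, adjusted p = 0.609), at 18.9 to 35.6 CPM over the 12 libraries.

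**Figure D2:**
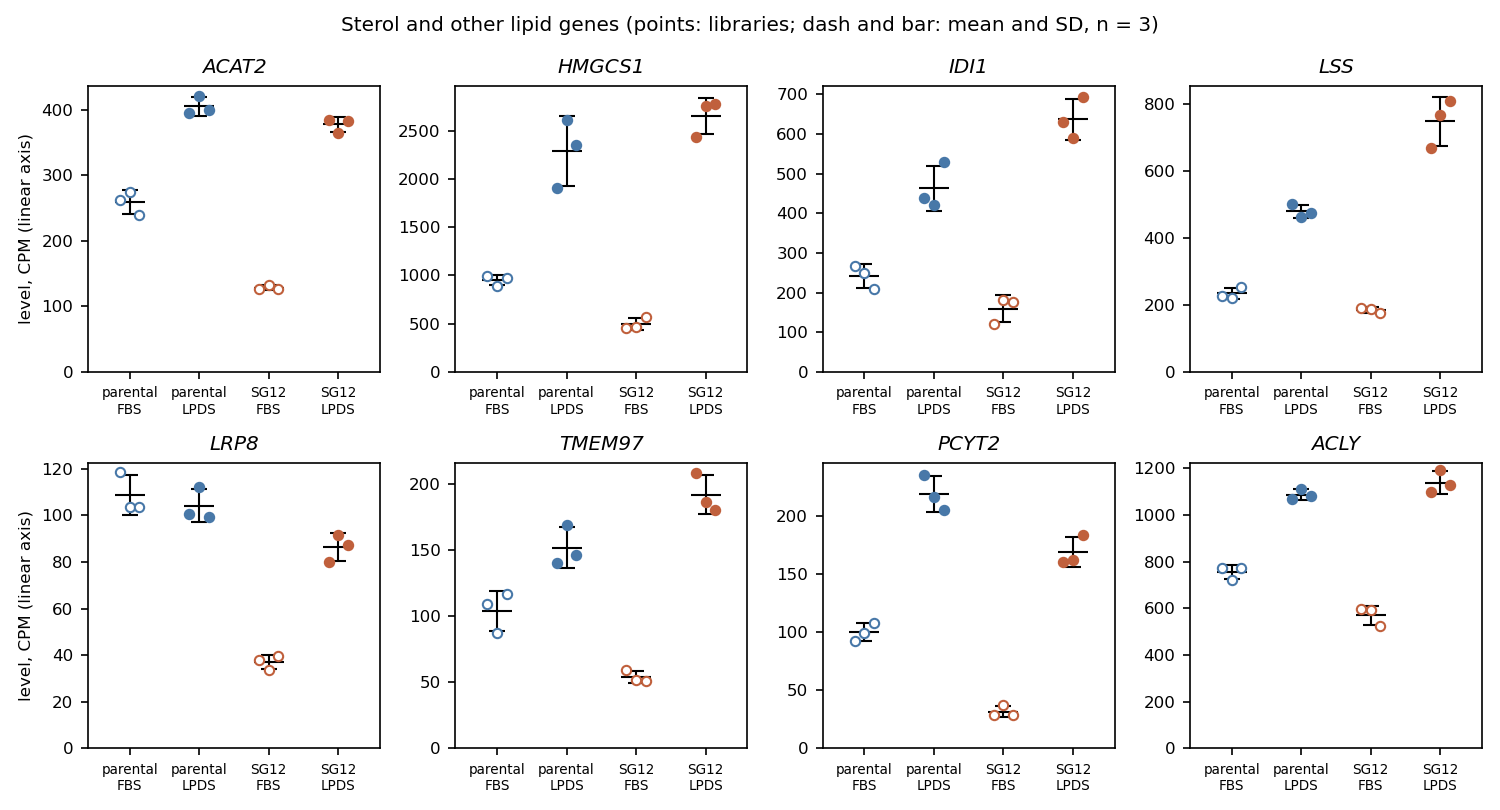
Level in CPM (linear axis from 0) of 8 sterol and other lipid genes in the 4 groups, with a point per library and the mean and SD of 3. In each panel SG12 in FBS is the lowest group, and in LPDS the SG12 mean is above the parental one for HMGCS1, IDI1, LSS, TMEM97 and ACLY and below it for ACAT2, LRP8 and PCYT2.

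In the list of sterol uptake and SREBP control, 5 of 20 genes were read. Of these, 2 had a higher response in SG12 and none a lower one, against 4.25% and 11.1% of all source genes (median difference 0.48). LRP8, an apolipoprotein E and reelin receptor that was on no list, went from 37.8, 33.8 and 39.6 to 79.9, 91.7 and 87.4 CPM in SG12, and was at 118, 103 and 104, then 101, 112 and 99.4 CPM in parental cells. All SG12 libraries lay below all parental ones, far apart in FBS and close in LPDS. LRP8 rose with LPDS in SG12 (1.22 ± 0.14) and did not pass in parental cells (-0.06 ± 0.13); the difference was 1.28 ± 0.20 (adjusted p = 0.000107).

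TMEM97 (chr17:28319095-28328685, GRCh38) was read from the 361 bases of its exons that overlap IFT20 at its 3′ end. Parental cells held 109, 87.5 and 117 CPM in FBS and 141, 170 and 146 CPM in LPDS. SG12 held 59.5, 51.5 and 51.1 CPM in FBS and 209, 187 and 181 CPM in LPDS. The transcript was thus lower in SG12 in FBS (-0.95 ± 0.14, adjusted p = 1.79e-05), and all 3 SG12 LPDS libraries lay above all parental ones without passing (0.33 ± 0.13, adjusted p = 0.112). The response difference was 1.28 ± 0.19 (adjusted p = 9.02e-05). The place of the edit is not given, so this stretch does not check the knockout. IFT20, an intraflagellar transport gene on the other strand, went from 87, 82.9 and 83.8 to 62, 57.4 and 65.5 CPM in SG12 (difference -0.68 ± 0.20, adjusted p = 0.037). Its call was lost in 16 of 21 other settings, among them 11 of the 12 that leave out 1 library, all but the one without SG12 FBS replicate 3, with an adjusted p of up to 0.174.

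NPC1, the lysosomal cholesterol exporter, did not pass (-0.59 ± 0.25, adjusted p = 0.166). It was at 59.2, 32.7 and 53.9 CPM in parental FBS, 78.1, 74.3 and 74.4 in parental LPDS, 79.8, 75.3 and 97.7 in SG12 FBS and 94.4, 92.7 and 73.7 in SG12 LPDS. SREBF2, the gene of SREBP2, rose in both lines (0.71 ± 0.12 in SG12, 0.42 ± 0.12 in parental cells), and the difference of 0.30 ± 0.16 did not pass (adjusted p = 0.305). SREBF1, the gene of SREBP1, rose by 1.32 ± 0.21 and 0.84 ± 0.20, with a difference of 0.48 ± 0.29 (adjusted p = 0.351). INSIG1 and PGRMC1 were not read as source genes.

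Promoters of the lipid genes with a higher response, chosen for that direction, were searched for motifs. RefSeq promoters (GRCh38.p14, 250 bases before to 50 after the start) were at hand for 7 of the 10 lipid genes with a higher response. CCAAT, the box bound by NF-Y, a partner of SREBP, lay on either strand in all 7, against 39.7% of 27305 genes. The sterol motif TCACNCCAC lay in 0 of the 7 and in 1.39% of all genes. The motifs were chosen after the members were known, a gene counts if any of its listed starts has a match, and no motif searched here is contained in another. The promoters of TMEM97 and HMGCS1, the gene named in the SG12 genotype and the cholesterol gene with the largest SG12 response, follow with each CCAAT, or its reverse complement ATTGG, in capitals.
TMEM97 promoter, chr17:28318950-28319249, plus strand: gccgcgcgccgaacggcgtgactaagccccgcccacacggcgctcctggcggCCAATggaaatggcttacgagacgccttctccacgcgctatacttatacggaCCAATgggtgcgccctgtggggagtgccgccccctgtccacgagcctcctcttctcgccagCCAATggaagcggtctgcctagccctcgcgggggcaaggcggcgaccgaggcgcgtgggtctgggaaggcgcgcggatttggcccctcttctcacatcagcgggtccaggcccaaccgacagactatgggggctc
HMGCS1 promoter, chr5:43313363-43313662, minus strand: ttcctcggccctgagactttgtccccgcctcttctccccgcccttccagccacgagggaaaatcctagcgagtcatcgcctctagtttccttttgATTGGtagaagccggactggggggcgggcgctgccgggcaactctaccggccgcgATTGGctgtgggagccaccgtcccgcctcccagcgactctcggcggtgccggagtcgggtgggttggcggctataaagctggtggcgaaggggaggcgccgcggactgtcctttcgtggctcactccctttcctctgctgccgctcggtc
The matches begin 198, 146 and 85 bases before the start in TMEM97, all as CCAAT, and 155 and 100 bases before it in HMGCS1, both as ATTGG.

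Of 22 genes of fatty acid and glycerolipid synthesis 8 were read. Of these, 3 had a higher response in SG12 and 2 a lower one, against 4.25% and 11.1% of all source genes (median difference 0.05). PCYT2, the rate-setting enzyme of phosphatidylethanolamine synthesis by the Kennedy pathway, went from 28.9, 36.8 and 28.2 to 160, 162 and 183 CPM in SG12. In parental cells it went from 92.6, 98.8 and 108 to 235, 216 and 205 CPM. SG12 stayed below parental cells in every library of either medium, at -1.66 ± 0.14 in FBS and -0.37 ± 0.12 in LPDS (adjusted p = 0.0612), and the response difference was 1.29 ± 0.19 (adjusted p = 7.11e-05). ACLY, which makes cytosolic acetyl-CoA, went from 597, 591 and 524 to 1098, 1191 and 1127 CPM in SG12 and from 774, 723 and 772 to 1068, 1112 and 1081 CPM in parental cells. Its difference of 0.47 ± 0.13 (adjusted p = 0.0215) was lost without SG12 LPDS replicate 2 (adjusted p = 0.0868).

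DGAT2, which makes the triglyceride of lipid droplets, went the other way. It was at 169, 158 and 130 CPM in SG12 FBS and 81.5, 96 and 89.4 CPM in SG12 LPDS, against 78.4, 92.7 and 92 and then 117, 120 and 96.4 CPM in parental cells. Only SG12 in FBS stood above the other groups, and the difference was -1.12 ± 0.20 (adjusted p = 0.000496). The desaturases FADS2 (0.90 ± 0.26, adjusted p = 0.0303) and FADS1 (-0.70 ± 0.20, adjusted p = 0.032) passed in opposite directions, but the exons of each overlap the other, and both calls were fragile. FADS2 lost its call without parental FBS replicate 3, parental LPDS replicate 1 or 2, SG12 FBS replicate 1 or SG12 LPDS replicate 1 or 2 (adjusted p of 0.0513 to 0.109), and FADS1 without parental FBS replicate 1, parental LPDS replicate 1 or 2, SG12 FBS replicate 1 or 2, or any SG12 LPDS library (0.073 to 0.154).

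The integrated stress response is the programme by which ATF4 raises amino acid transporters, one-carbon enzymes and tRNA synthetases when translation initiation is restrained. Of 28 genes on its list 9 were read. Of these, 7 had a lower response in SG12 and none a higher one, against 11.1% and 4.25% of all source genes. The median difference was -1.32 against -0.12 over all source genes. All 9 fell with LPDS in SG12 (21.5% of all source genes), and 2 rose in parental cells (2.48%). In FBS 6 were higher in SG12 than in parental cells (24.9% of all source genes), and in LPDS 4 were lower (7.2%).

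Among the transporters, SLC7A11, the cystine importer, was at 222, 179 and 195 CPM in parental FBS and 265, 369 and 356 CPM in parental LPDS. In SG12 it was at 465, 453 and 463 CPM in FBS and at 222, 210 and 188 CPM in LPDS. SG12 was above every parental library in either medium when in FBS and below every parental LPDS library when in LPDS. The response was -1.15 ± 0.12 in SG12 and 0.73 ± 0.12 in parental cells, a difference of -1.89 ± 0.17 (adjusted p = 7.7e-08).

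SLC7A5, the large neutral amino acid exchanger, went from 1251, 1312 and 1060 to 544, 512 and 503 CPM in SG12 and was at 1023, 482 and 1020, then 1123, 1037 and 1053 CPM in parental cells. SLC1A5, a glutamine carrier, went from 1803, 1709 and 1352 to 918, 847 and 794 CPM in SG12 and was at 1284, 832 and 1311, then 1581, 1562 and 1352 CPM in parental cells. For both genes parental FBS replicate 2 was the low library of its group and the SG12 LPDS libraries lay below all parental LPDS ones. The differences were -1.56 ± 0.24 for SLC7A5 (adjusted p = 9.81e-05) and -1.32 ± 0.19 for SLC1A5 (adjusted p = 4.72e-05). Without parental FBS replicate 2 they were -1.29 (adjusted p = 2.86e-08) and -1.14 (adjusted p = 1.23e-06). SLC6A9, a glycine transporter on no list, went from 166, 144 and 171 to 109, 82.8 and 96.6 CPM in SG12 and from 52.3, 40 and 48.6 to 79.3, 78.4 and 94.8 CPM in parental cells. The lines met in LPDS, and the difference was -1.58 ± 0.21 (adjusted p = 1.52e-05).

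The mitochondrial folate enzymes moved with the transporters. MTHFD2 went from 3351, 3372 and 2817 to 1478, 1534 and 1387 CPM in SG12 and was at 1931, 2023 and 1861, then 1984, 2203 and 2068 CPM in parental cells. ALDH1L2 went from 94.8, 75.3 and 72.8 to 41.7, 34.6 and 34.7 CPM in SG12 and was at 34.2, 37.1 and 34, then 58.8, 45.9 and 43.6 CPM in parental cells. SG12 in FBS was the highest group for both. The differences were -1.22 ± 0.13 for MTHFD2 (adjusted p = 4.57e-07) and -1.61 ± 0.24 for ALDH1L2 (adjusted p = 9.81e-05), and SHMT2 of the same pathway did not pass (-0.27).

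CEBPB, a transcription factor, was at 14.8 to 54.2 CPM over the 12 libraries and passed (-1.37 ± 0.35, adjusted p = 0.0133). Its call was lost without parental LPDS replicate 1 (adjusted p = 0.0507) or SG12 FBS replicate 1 (0.0736). VEGFA, the angiogenic growth factor, which is on the hypoxia list too, was at 921, 932 and 914 CPM in SG12 FBS and 486, 583 and 677 CPM in SG12 LPDS. In parental cells it was at 378, 404 and 451, then 568, 552 and 590 CPM. The lines were apart in FBS and overlapped in LPDS, with a difference of -1.14 ± 0.16 (adjusted p = 2.48e-05).

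Of 23 tRNA charging genes 7 were read. Of these, 4 had a lower response in SG12 and none a higher one, against 11.1% and 4.25% of all source genes. WARS1, the tryptophan synthetase, was at 392, 324 and 385 CPM in parental FBS and 490, 487 and 491 CPM in parental LPDS. SG12 held 1331, 1337 and 1135 CPM in FBS and 278, 267 and 238 CPM in LPDS. SG12 was the highest group in FBS and the lowest in LPDS. WARS1 fell in SG12 (-2.28 ± 0.11) and rose in parental cells (0.42 ± 0.10, adjusted p = 0.0255), and the difference of -2.69 ± 0.15 (adjusted p = 5.3e-12) was the largest of any list member.

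AIMP2, a scaffold of the multisynthetase complex, went from 3670, 3495 and 3059 to 1152, 1075 and 958 CPM in SG12 and was at 1302, 1719 and 1188, then 1404, 1517 and 1411 CPM in parental cells. MARS1, the methionine synthetase, went from 215, 216 and 241 to 135, 111 and 109 CPM in SG12 and was at 143, 88.9 and 128, then 156, 158 and 140 CPM in parental cells. SG12 FBS was the highest group for both. The differences were -1.72 ± 0.16 for AIMP2 (adjusted p = 7.7e-08) and -1.25 ± 0.20 for MARS1 (adjusted p = 0.000223). MARS1 was read from the entry of DDIT3, a stress gene on the other strand, whose own reads cannot be fully told apart. CARS1, YARS1 and AIMP1 did not pass.

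The element bound by ATF4 with C/EBP partners, searched as TGATGNAAN on either strand, lay in 2 of the 7 stress and tRNA genes with a lower response whose promoter was at hand (of 11), against 4.45% of all genes. CCAAT lay in 5 of the 7. The 2 genes are MARS1 and SLC1A5, and the promoter of MARS1 shows the match in capitals, beginning 5 bases before the start, on the strand opposite to the gene.
MARS1 promoter, chr12:57487818-57488117, plus strand: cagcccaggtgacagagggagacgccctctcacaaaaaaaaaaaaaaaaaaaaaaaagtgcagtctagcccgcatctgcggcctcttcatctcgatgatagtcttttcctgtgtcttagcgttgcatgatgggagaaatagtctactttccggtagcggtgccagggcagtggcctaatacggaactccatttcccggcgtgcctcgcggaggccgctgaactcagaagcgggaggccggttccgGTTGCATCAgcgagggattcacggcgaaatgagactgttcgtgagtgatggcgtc

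**Figure D3:**
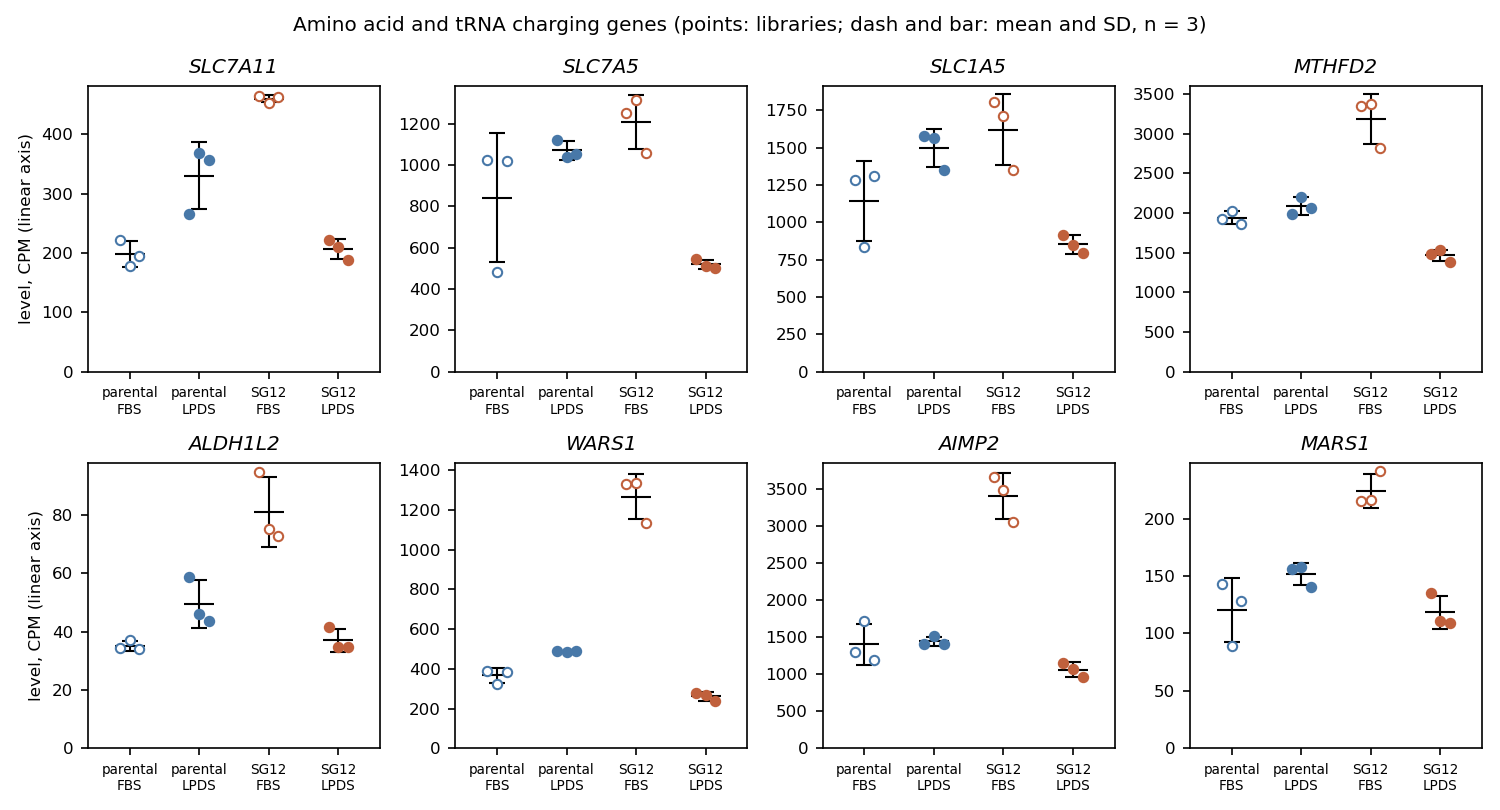
Level in CPM (linear axis from 0) of 8 amino acid and tRNA charging genes in the 4 groups, with a point per library and the mean and SD of 3. SG12 in FBS is the highest group in each panel, and in SG12 the LPDS libraries lie below all FBS libraries.

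Hypoxia genes include enzymes that mature collagen. Of 23 on the list 7 were read. Of these, 3 had a lower response in SG12 and none a higher one, against 11.1% and 4.25% of all source genes (median difference -0.35). P4HA2, a collagen prolyl hydroxylase, went from 393, 389 and 372 to 120, 147 and 112 CPM in SG12 and was at 177, 128 and 165, then 110, 140 and 118 CPM in parental cells. LOX, which crosslinks collagen, went from 698, 697 and 620 to 279, 343 and 308 CPM in SG12 and was at 464, 386 and 481, then 415, 397 and 393 CPM in parental cells. Both were highest in SG12 in FBS, with differences of -1.25 ± 0.19 for P4HA2 (adjusted p = 9.58e-05) and -0.97 ± 0.15 for LOX (adjusted p = 0.000159). VEGFA is the other member that passed, and PDK1, LOXL2, ANKRD37 and MXI1 did not.

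Genes of DNA replication were lower in SG12 in FBS for 6 of the 8 read (of 38), against 13.6% of all source genes. Of the 8, 3 had a higher response to LPDS in SG12 and 1 a lower one, against 4.25% and 11.1% (median difference 0.34). MCM2, a subunit of the replicative helicase, was at 677, 626 and 620 CPM in parental FBS and 572, 588 and 519 CPM in parental LPDS. In SG12 it was at 159, 146 and 138 CPM in FBS and 414, 342 and 331 CPM in LPDS. MCM2 was below every parental library in both SG12 groups, less so in LPDS, and the difference was 1.49 ± 0.15 (adjusted p = 4.38e-07).

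LIG1, the replicative DNA ligase, went from 69.1, 58.2 and 34.7 to 105, 105 and 101 CPM in SG12 and was at 127, 181 and 124, then 137, 129 and 108 CPM in parental cells. CCNE2, the cyclin E2 of the entry into S phase, went from 29.9, 26.1 and 30.2 to 81.8, 40.2 and 46.8 CPM in SG12 and was at 125, 83.4 and 95.2, then 74.1, 85.8 and 90.2 CPM in parental cells. Both were lowest in SG12 in FBS. The differences were 1.14 ± 0.26 for LIG1 (adjusted p = 0.00534, and 0.0862 with the share of reads on the named strand as a covariate) and 1.25 ± 0.29 for CCNE2 (adjusted p = 0.0081). GINS4, a helicase partner, was lower (-0.63 ± 0.16, adjusted p = 0.0139), a call lost with that covariate and without parental LPDS replicate 2, SG12 FBS replicate 2 or SG12 LPDS replicate 3 (0.0683 to 0.0991). RFC5, PRIM1, GINS3 and RRM1 did not pass.

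Of 21 genes of recombination repair 6 were read, and 2 had a higher response in SG12, against 4.25% of all source genes. RAD54L, a motor protein of homologous recombination, went from 72, 94.3 and 64.2 to 168, 138 and 142 CPM in SG12 and was at 297, 298 and 282, then 230, 247 and 228 CPM in parental cells. FANCA, of the Fanconi core complex, went from 46.3, 50.5 and 45.8 to 108, 107 and 115 CPM in SG12 and was at 137, 101 and 139, then 125, 116 and 136 CPM in parental cells. RAD54L stayed below every parental library in LPDS and FANCA did too, narrowly. The differences were 1.27 ± 0.18 for RAD54L (adjusted p = 5.12e-05) and 1.21 ± 0.20 for FANCA (adjusted p = 0.000229). Of 3 mitosis genes read none passed in the difference: CCNA2 was at 0.61, PLK1 at 0.32 and KIF20A at 1.36. All 3 were lower in SG12 in FBS, as were 13.6% of all source genes.

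**Figure D4:**
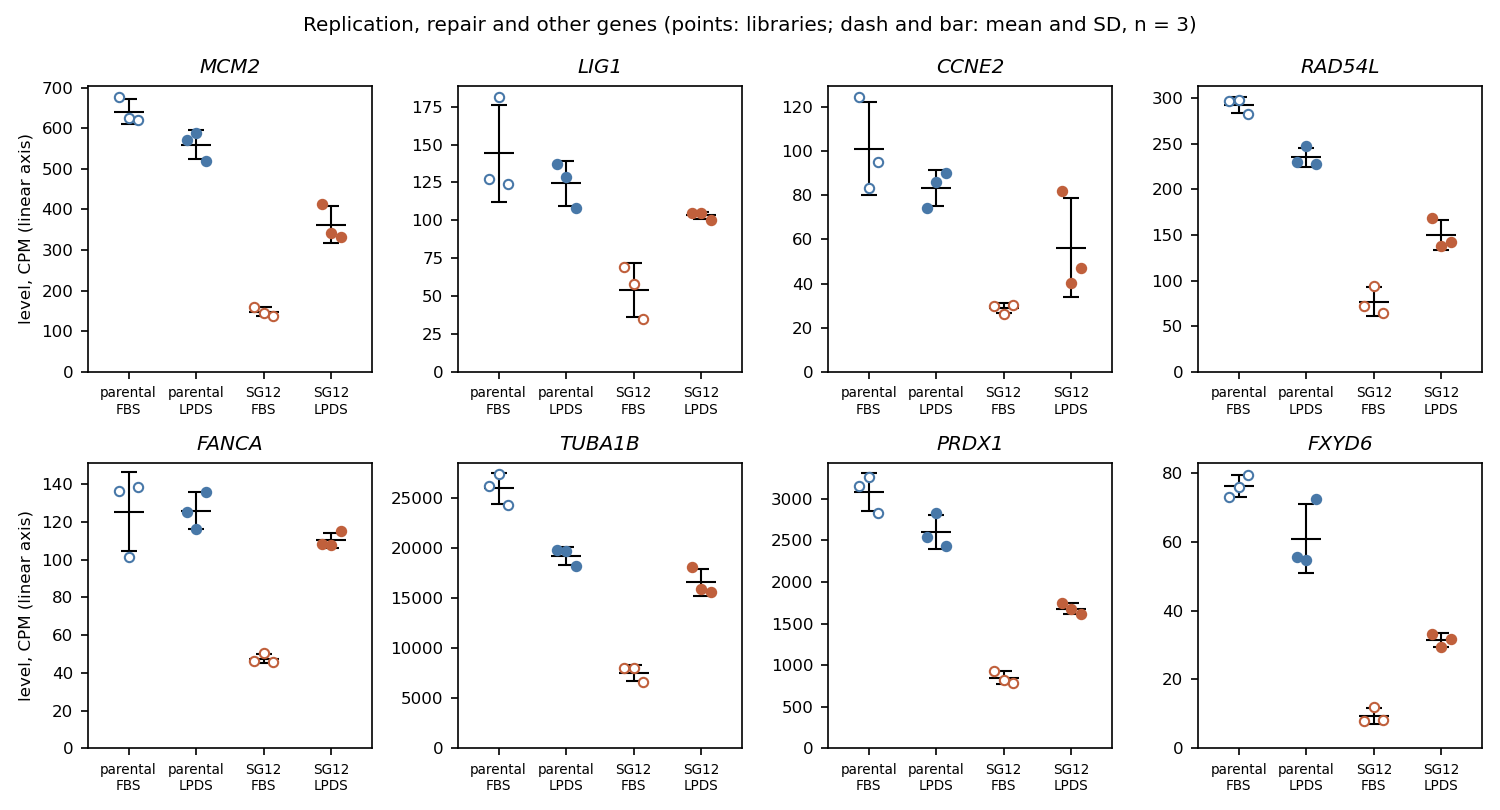
Level in CPM (linear axis from 0) of 5 replication and repair genes and of TUBA1B, PRDX1 and FXYD6 in the 4 groups, with a point per library and the mean and SD of 3. In each panel SG12 in FBS is the lowest group and SG12 in LPDS lies between it and parental FBS.

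TUBA1B, an alpha tubulin on no list, was at 26157, 27380 and 24316 CPM in parental FBS and 19766, 19747 and 18194 CPM in parental LPDS. In SG12 it was at 7997, 7991 and 6612 CPM in FBS and 18147, 15943 and 15643 CPM in LPDS. TUBA1B fell in parental cells (-0.43 ± 0.08, adjusted p = 0.00339) and rose in SG12 (1.14 ± 0.08), a difference of 1.57 ± 0.12 (adjusted p = 1.39e-09). Its near-identical paralogs could share reads, so the gene is uncertain. PRDX1, a peroxiredoxin, went from 935, 824 and 789 to 1752, 1674 and 1616 CPM in SG12 and was at 3154, 3263 and 2825, then 2537, 2823 and 2435 CPM in parental cells. PRDX1 was below parental cells in every SG12 library, and its difference was 1.23 ± 0.13 (adjusted p = 6.48e-07).

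FTH1, the ferritin heavy chain that stores iron, went from 15486, 14606 and 14808 to 10686, 10361 and 10408 CPM in SG12 and was at 14321, 13362 and 12486, then 14728, 14778 and 14037 CPM in parental cells. Here SG12 in LPDS was the group apart, below all others, with a difference of -0.63 ± 0.10 (adjusted p = 0.000161). With SLC7A11, PRDX1 and FTH1 were the passing members of the NRF2 and ferroptosis list. Of 5 read (of 16), 1 was higher and 2 lower, against 4.25% and 11.1% of all source genes. IER2, an immediate early gene, went from 700, 670 and 789 to 2265, 2523 and 2911 CPM in SG12 and from 982, 1531 and 1123 to 2253, 1952 and 2128 CPM in parental cells. IER2 rose in both lines, further in SG12 (difference 1.03 ± 0.18, adjusted p = 0.000361), and JUNB and EGR3 of its list did not pass.

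Among the largest lower differences, DSC1, a desmosomal cadherin, was at 12, 8.98 and 12.2 CPM in parental FBS and 20.9, 14.7 and 10.6 CPM in parental LPDS. In SG12 it was at 108, 98.7 and 94.4 CPM in FBS and 10.2, 11.2 and 12.8 CPM in LPDS. The 3 SG12 FBS libraries were far above the other 9, which overlapped, and the difference was -3.60 ± 0.33 (adjusted p = 7.7e-08). HSD17B2, a steroid dehydrogenase, went from 68.1, 57.5 and 52.7 to 11.4, 13.5 and 14.7 CPM in SG12 and from 8.62, 11.3 and 19 to 25.8, 27.1 and 25.6 CPM in parental cells. HSD17B2 fell in SG12 and rose in parental cells, with a difference of -3.21 ± 0.34 (adjusted p = 6.95e-07).

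SAMD11 went from 947, 990 and 843 to 186, 148 and 160 CPM in SG12 and was at 398, 299 and 374, then 371, 369 and 390 CPM in parental cells. SNTB1, a syntrophin, went from 240, 198 and 186 to 46, 47.8 and 54 CPM in SG12 and was at 125, 115 and 124, then 151, 165 and 137 CPM in parental cells. Both crossed: SG12 was the highest group in FBS and the lowest in LPDS. The differences were -2.57 ± 0.17 for SAMD11 (adjusted p = 8.18e-11) and -2.40 ± 0.19 for SNTB1 (adjusted p = 3.36e-09). BMF, a BH3-only protein that promotes apoptosis, went from 72.4, 73.6 and 61.7 to 26.2, 34.3 and 35.4 CPM in SG12 and from 19.5, 14.2 and 25.5 to 30.6, 36.2 and 39.2 CPM in parental cells, meeting there (difference -1.98 ± 0.29, adjusted p = 6.76e-05).

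ACTA2, smooth muscle actin, did not follow this course. It was at 195, 245 and 244 CPM in parental FBS, 277, 253 and 246 in parental LPDS, 115, 116 and 108 in SG12 FBS and 50.6, 58 and 67.8 in SG12 LPDS. The lines were further apart in LPDS (-2.13 ± 0.13) than in FBS (-1.01 ± 0.13), and the difference was -1.13 ± 0.18 (adjusted p = 0.000208). ACTA2, THY1 and FAP are the 3 of 10 fibroblast markers read; their sum was 785 to 921 CPM in parental FBS, 759 to 845 in parental LPDS, 370 to 462 in SG12 FBS and 356 to 359 in SG12 LPDS. In FBS the sum was mostly THY1, which like ACTA2 was lower in SG12 (-1.22 ± 0.12), while FAP was higher (0.40 ± 0.14, adjusted p = 0.0422). Their part in the result was not tested.

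Of the largest higher differences, FXYD6, a regulator of the sodium pump, went from 7.84, 12 and 8.17 to 33.3, 29.3 and 31.8 CPM in SG12 and was at 73.1, 75.9 and 79.4, then 55.6, 54.7 and 72.4 CPM in parental cells. SLCO4A1, an organic anion transporter, went from 31.7, 35.8 and 26.2 to 83.3, 88 and 94.3 CPM in SG12 and was at 88.7, 80.2 and 92, then 68, 62.3 and 68.1 CPM in parental cells. FXYD6 stayed below parental cells in LPDS, and SLCO4A1 lay above all parental LPDS libraries without passing there (adjusted p = 0.0715). The differences were 2.06 ± 0.28 for FXYD6 (adjusted p = 1.89e-05) and 1.89 ± 0.21 for SLCO4A1 (adjusted p = 1.57e-06). SMTN, a protein of smooth muscle actin fibres, crossed in the same way, from 37.4, 38.1 and 26.6 to 97.5, 70.6 and 100 CPM in SG12 against 72.8, 85.7 and 59.6, then 61.6, 62.6 and 56.1 CPM in parental cells (1.67 ± 0.25, adjusted p = 9.58e-05). The other genes of the 15 largest in each direction were THEM6 (2.30), CHUK (1.48), WDR90 (1.46), DAZAP2 (1.44) and ADPGK (1.27) among the higher and CA5B (-2.86), PLA2G4C (-2.65), BEST1 (-2.37), IL21R (-2.23), RNF32 (-2.07), EVX1 (-1.91) and NUDT17 (-1.90) among the lower. The calls of PLA2G4C (adjusted p = 0.0515), CHUK (0.144) and ADPGK (0.0989) were lost with the share of reads on the named strand as a covariate. PLA2G4C was also lost without parental LPDS replicate 2 (0.0954). CHUK was lost without parental LPDS replicate 1, SG12 FBS replicate 1 or 2, or SG12 LPDS replicate 3 (0.0522 to 0.0687). BEST1 was read from the entry of FTH1, whose own reads may reach it, and is uncertain.

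Each other list that was read had at most 1 passing member, while 15.3% of all source genes passed. With so few genes read per list, these counts can hardly be told apart from that share. No gene passed among 7 of the TCA cycle (median difference -0.01), 6 of the respiratory chain (-0.04), 5 ER chaperones (0.22) and the single LXR target read, LPCAT3 (-0.15 ± 0.15). LPCAT3, which remodels phospholipids, rose in SG12 (0.63 ± 0.11) and in parental cells (0.78 ± 0.11). Of the passing members, 1 each stood on the lists of glycolysis (ALDOC, 0.67 ± 0.15), p53 targets (TP53I3, -1.24 ± 0.19) and ribosomal proteins (RPL15, -0.86 ± 0.16), where 5 genes each were read. The single lysosome gene to pass was HEXA (-0.65 ± 0.16), whose call was lost without parental FBS replicate 3, parental LPDS replicate 2, SG12 FBS replicate 1 or SG12 LPDS replicate 1 (adjusted p of 0.0504 to 0.0828). The single mesenchymal gene was ZEB2 (-0.95 ± 0.27), lost with the covariate (adjusted p = 0.274) and without parental FBS replicate 1, parental LPDS replicate 1 or 3, SG12 FBS replicate 2 or any SG12 LPDS library (0.0508 to 0.127). No mitochondrial genome or interferon gene was read.

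**Figure D5:**
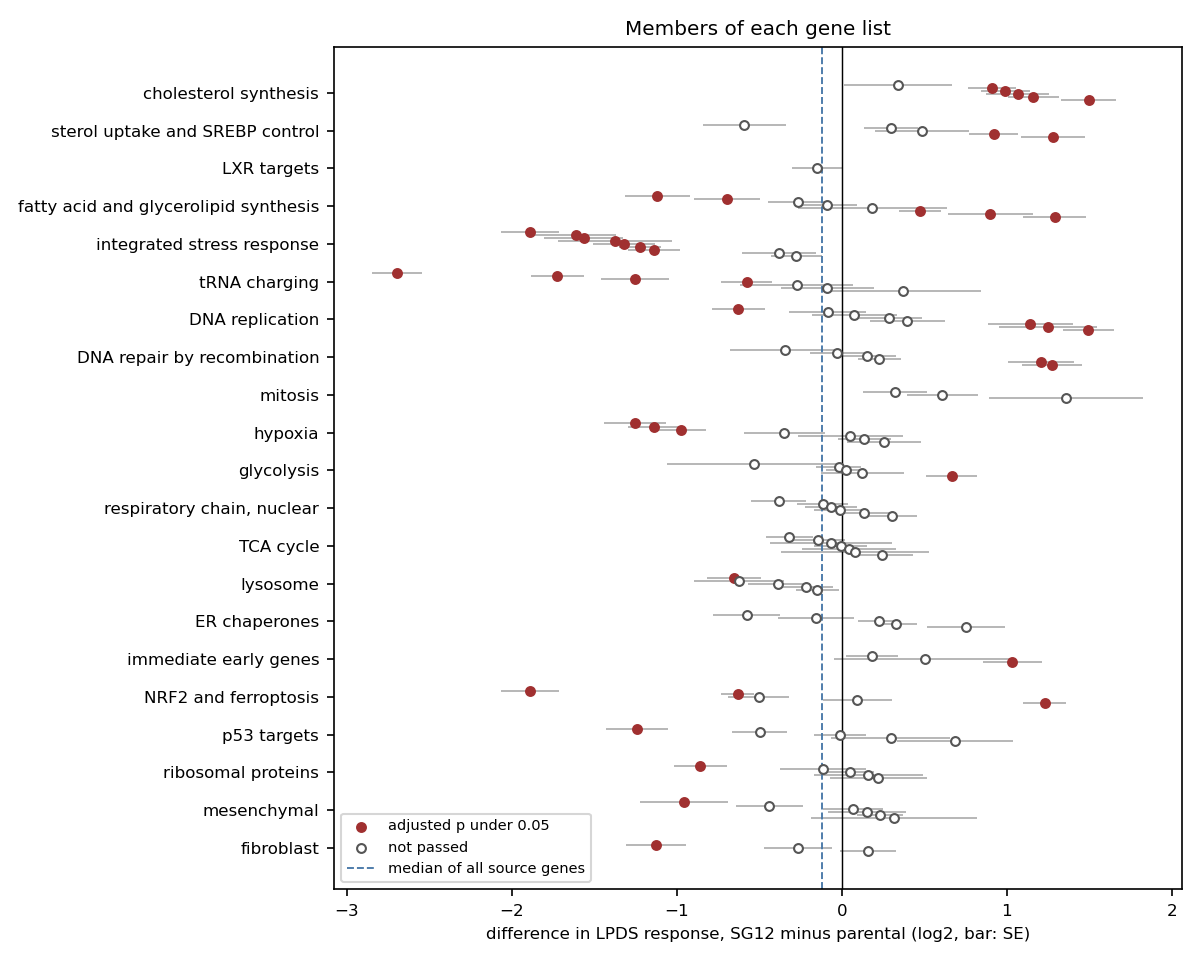
Difference in LPDS response, SG12 minus parental (log2, bar: SE), of each gene read on each list, filled where the adjusted p is under 0.05, with the median of all source genes (-0.12) as a dashed line. The cholesterol genes all lie above 0, and the 9 stress response genes lie between -1.89 and -0.27.

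The response of SG12 was also compared, in a fit of all 24 libraries, with that of SGCTRL (genotype SG Control, WT) and of SG21 (genotype TMEM97 Knockout), HGC27 lines in the same media with 3 libraries per group. These comparisons share the SG12 libraries with the one above. The SGCTRL libraries had 2.10% to 2.24% ambiguous reads, apart from the 12 libraries of SG12 and parental cells, so line and this library property cannot be told apart for SGCTRL. Of the 6 SG21 libraries, LPDS replicates 2 and 3 were at 2.15% and 2.18% and the other 4 at 2.58% to 2.71%. SG12 minus SGCTRL passed for 543 source genes (19.5%, 8.24% higher and 11.3% lower), and SG12 minus SG21 for 612 (22.0%, 9.64% and 12.4%). SG21 minus parental, a contrast added later, passed for 24 (0.864%, 0.18% higher and 0.684% lower). For HMGCS1 the differences were 1.50 ± 0.15 from SGCTRL (adjusted p = 3.34e-09) and 1.29 ± 0.15 from SG21 (adjusted p = 8.25e-08), while SG21 minus parental was -0.08 ± 0.14 (adjusted p = 0.845). For TMEM97 they were 1.57 ± 0.17, 1.18 ± 0.18 and 0.16 ± 0.17. For WARS1 they were -2.59 ± 0.14, -2.72 ± 0.14 and 0.08 ± 0.14. For MCM2 they were 1.66 ± 0.15, 0.89 ± 0.15 and 0.66 ± 0.15 (adjusted p = 0.0231), so that SG21 passed against parental cells in this gene. Of the 6 cholesterol genes read 5 were higher against SGCTRL and 5 against SG21, and none passed in SG21 minus parental. Of the 9 stress response genes 6 were lower against SGCTRL, 7 against SG21 and none in SG21 minus parental.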

How the data were processed

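RNA of 24 HGC27 libraries was read from an Illumina stranded total RNA kit after ribosomal RNA removal, per the labels' protocols. The reads were demultiplexed with bcl2fastq and aligned with STAR to hg38, per the submitters' processing notes; the counting program, its strand setting and its annotation are not given in the sources used here. The deposited files hold raw read counts per gene ID. The 5 closing rows that name no gene were left out of library sizes and tests; in the 12 libraries 94.3% to 94.6% of uniquely aligned reads were on the row for no feature. Of 61578 gene rows 56730 matched GENCODE 29.

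Counts lay mostly on the opposite strand: of 1963 pairs of a gene and its antisense entry, 1391 (70.9%) had more reads under the antisense name. An entry was therefore assigned to the gene on the other strand with at least 50 bases of exon overlap and 80% of all such overlap. It was read as that gene if protein-coding and if its mean exceeded 6.15 CPM, a level that 90% of the 9451 protein-coding entries lacking an opposite-strand gene do not reach. The 34 entries with over 50% of reads attributable to their own gene were set aside, and 1 entry, that with the highest mean, was kept per source gene. Of the source genes whose difference passed, 67 had a second entry tested. In 56 of these the second entry had the same sign, and in the rest it had the opposite one. The overlap covers part of a gene.

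edgeR 4.0.16 (R 4.3.3) was run on the counts as deposited: a mean per group over the 12 libraries, filterByExpr, TMM, quasi-likelihood F test, Benjamini-Hochberg adjustment over all 11666 entries, and an adjusted p under 0.05 to pass. Contrasts with SGCTRL and SG21 came from a fit of all 24 libraries. The SE is the size of the log2 difference over the square root of F, n = 3 per group throughout, and levels are TMM-scaled CPM. The procedure was tested on simulated data. Alternatives were DESeq2 1.42.0, other scalings and filters, a replicate block, a covariate and each library left out.

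The gene lists and members were chosen with earlier results of these data known. Named were TMEM97, IFT20 and fixed sterol genes, all measured cholesterol genes, up to 6 passing members of every other list by adjusted p, and the 15 largest passing differences of each sign at an average log2 CPM of at least 2. List members that did not pass were named as well, after their values were seen. Entries whose own gene is protein-coding had to exceed 47.3 CPM to be named by size, a narrowing made after values were seen. Also named were 7 of the 8 largest differences, 4 of each sign, among entries with no source gene. Genes whose difference passed and whose 2 responses passed in opposite directions were named too. Results for some genes are not reported here; counts and medians of lists cover all genes read.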

Additional observations from a re-analysis of the deposited data

Results flagged for a closer look

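Of the source genes whose difference passed (edgeR, adjusted p under 0.05), 16 had responses to LPDS that passed in both lines in opposite directions. These calls singled the genes out, so the differences below describe them and are no further test. In 12 genes the level fell in SG12 and rose in parental cells. Their differences were -3.21 for HSD17B2, -2.89 for RAPGEF3, -2.69 for WARS1, -2.34 for CHMP4C, -1.98 for BMF, -1.89 for SLC7A11, -1.58 for SLC6A9, -1.27 for CNTNAP1, -1.14 for VEGFA, -0.99 for EPC1, -0.90 for CABLES1 and -0.90 for TOM1L1.

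RAPGEF3, a guanine nucleotide exchange factor activated by cyclic AMP, went from 45.3, 45.5 and 43.7 to 14.8, 11.2 and 14.1 CPM in SG12 and from 10, 15.4 and 10.1 to 21.3, 27.1 and 30.2 CPM in parental cells. CHMP4C, a subunit of the ESCRT-III membrane scission complex, went from 109, 104 and 96.5 to 26.2, 41.2 and 31.1 CPM in SG12 and from 35.3, 35.1 and 36.5 to 62, 47.9 and 62.6 CPM in parental cells. Both crossed between the media, with SG12 above all parental libraries in FBS and below all parental LPDS libraries in LPDS. CHMP4C was read from the entry of ZFAND1, a gene on the other strand, whose own reads cannot be fully told apart. ZFAND1, read from the entry of CHMP4C, had a difference of -2.04. The call of CABLES1 was lost with the share of reads on the named strand as a covariate (-0.66, adjusted p = 0.0947).

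In 4 genes the level rose in SG12 and fell in parental cells: the difference was 1.57 for TUBA1B, 1.20 for PEG10, 1.00 for ANLN and 3.04 for WDR20. ANLN, the actin-binding anillin of the cleavage furrow, was at 434, 499 and 436 and then 350, 295 and 339 CPM in parental cells and at 234, 245 and 246 and then 373, 328 and 336 CPM in SG12, so that the lines overlapped in LPDS. WDR20 was read at 0.356 to 36.5 CPM from the entry of HSP90AA1, a chaperone gene whose own reads may reach it, and is uncertain.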

How the results depend on the processing

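No named gene that passed changed direction under any alternative run. The runs were compared over 146 entries: every list member read, the genes fixed by name and the largest differences, with or without a source gene. With all libraries, or without both that stand apart, 132 to 145 of these kept their side of the threshold. The 132 were with the share of reads on the named strand as a covariate, the 145 with DESeq2 size factors or the replicate block. Genes that passed in neither fit count among these whatever their direction. The 900 entries of the difference became 796 to 1050 under the other tests, scalings and filters, 1031 with all 24 libraries in the fit, 871 with the covariate, and 1561 (664 higher, 897 lower) without both libraries that stand apart, a setting chosen after seeing the data. With the covariate, the parental response had 34 calls in place of 465 and SG12 against parental in FBS 1122 in place of 3176. SG12 against parental in LPDS had 1903 in place of 1038 without both libraries. The cause was not tested. Leaving out 1 library gave 609 to 1079 for the difference, 1648 to 3204 for the SG12 response, 84 to 808 for the parental response, 2530 to 3244 in FBS and 356 to 1494 in LPDS. The LPDS count was 515 and 356 without parental LPDS replicate 1 and 2, and 545, 551 and 518 without SG12 LPDS replicate 1, 2 and 3. With the replicate block the difference had 996 calls (324 higher, 672 lower). Same-numbered libraries correlated at -0.14 to 0.24 in their deviations, over 0.1 in 4 of 18 pairs. Differently numbered ones correlated at -0.27 to 0.22, over 0.1 in 4 of 36 pairs. Of 12 libraries, 7 correlated best with their own number. These values do not settle whether the numbers pair the libraries, and the main fit did not pair them. Source genes passing were 392 when 1 gene had to hold 95% of the overlap and 342 above the 99th percentile, against 426. With 2399212 to 4076266 reads on genes, low entries are read with little precision.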

Other observations

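Entries to which no gene on the other strand was assigned also passed in some cases. Their reads may lie on the named strand, where few reads of this kit were counted. Such an entry may still overlap a gene on the other strand below the limits for assignment. For ENSG00000288533 no position was at hand, so the strand of its reads is unknown. RAB7B, a lysosomal Rab GTPase, was at 17.5, 16.7 and 6.54 CPM in SG12 FBS and at 0.244 to 3.09 CPM in the other 9 libraries (difference -5.06 ± 1.22, edgeR adjusted p = 0.00957). Its call was lost without parental LPDS replicate 3 and with the share of reads on the named strand as a covariate (adjusted p of up to 0.0662). Other differences of this kind included -4.91 for ENSG00000267649, -4.17 for ENSG00000288533 and -4.05 for H3C6, and 3.12 for MCM4, 2.66 for MCRS1 and 2.54 for VSIG2. The call of MCRS1 was lost with that covariate (adjusted p = 0.142). The MCM4 entry was at 10.6, 15.6 and 10.9 CPM in parental FBS and at 0.33 to 2.82 CPM elsewhere, and its call was lost in 8 of 21 other settings, with an adjusted p of up to 0.197.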
